A study of Mus musculus with 102 samples.

Results

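Microglia of mice with floxed alleles of the cholesterol exporter genes Abca1 and Abcg1 and a microglial Cre were compared with wild type microglia. All came from mice labelled naive, for which no cisplatin or intrathecal injection is listed. ABC-imKO naive microglia (KO) came from mice of genotype Abca1fl/fl Abcg1fl/fl Cx3cr1-CreERT2, and WT naive microglia from wild type mice. Each group had 3 numbered samples, so 6 of the 17 samples of the series and 20461 of the 53715 genes in the count matrix entered the comparison; samples were chosen by their labels and genes by a filter on low counts. The other 11 samples came from mice of the same genotypes given cisplatin (a chemotherapy drug) followed by saline or AIBP (apoA-I binding protein), and they enter below only as values for the same genes in other samples. All cells were sorted from the lumbar spinal cord straight into lysis buffer, and polyadenylated RNA was amplified by PCR before library preparation. Whether a numbered sample holds cells of a single mouse or of several is not labelled, and neither are age, sex, strain background or tamoxifen schedule. The labels do not say that the WT mice carried floxed alleles or the Cre transgene, so effects of the floxed genes and of Cx3cr1-CreERT2 cannot be told apart.

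ABCA1 and ABCG1 are membrane pumps that move cholesterol out of the cell, ABCA1 to lipid-poor apolipoproteins and ABCG1 to lipoprotein particles. Both genes are targets of the liver X receptors (LXR), which sense oxidised sterols, while SREBP2 with its partners SCAP and INSIG1 switches on cholesterol synthesis when sterols are scarce. CreERT2 is a Cre recombinase fused to a mutated oestrogen receptor domain, and it enters the nucleus on exposure to tamoxifen. Under the Cx3cr1 promoter it is made in microglia and in other cells that express this fractalkine receptor.

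The 6 naive samples held 53158379 to 70300096 counts, 18817 to 20889 detected genes and 1.53 to 2.14% mitochondrial counts. Each was the sum of 3 technical replicates sequenced on 2 lanes. A library is 1 technical replicate, so the 9 libraries of a genotype come from 3 samples and are not independent. The median chi-square per degree of freedom between counts was 122.4 for technical replicates, 180.5 for samples of a group and 1.28 for lanes. The 18 homeostatic microglia genes summed to 84320 to 103200 CPM (counts scaled to a common library size, with TMM factors) in the KO samples and 96050 to 113600 CPM in the WT samples, so genes that define the sorted cell type were abundant in every sample. Markers of other cells were detected in both genotypes. The 7 B cell markers summed to 787 to 1518 CPM in KO and 1261 to 1548 CPM in WT, the 9 neutrophil markers to 702 to 794 CPM in KO and 670 to 802 CPM in WT, with 6 of the 9 at 0 counts in each genotype, and the 8 oligodendrocyte markers to 468 to 798 CPM in KO and 597 to 935 CPM in WT. The 9 monocyte markers summed to 4.32 to 34.5 CPM in KO and 3.84 to 65.3 CPM in WT. The 9 border macrophage markers summed to 6.44 to 8.94 CPM in KO and 0.142 to 4.65 CPM in WT, with Lyve1 at 0 counts in both, Cd163 at 0 counts in KO and 2 in WT, and Cbr2 at 915 counts in KO and 2 in WT; their part in the differences below was not tested. Hp, a haptoglobin gene listed with the monocyte markers, had 857 of its 861 KO counts in sample 2. Astrocyte markers summed to 265 to 397 CPM in KO and 315 to 446 CPM in WT, endothelial markers to 19.8 to 54.1 CPM in KO and 25.7 to 44.8 CPM in WT, neuron markers to 4.67 to 6.74 CPM in KO and 5.32 to 18.8 CPM in WT, oligodendrocyte precursor markers to 0.0321 to 5.93 CPM in KO and 3.39 to 10.3 CPM in WT, and T and NK cell markers to 1.03 to 3.53 CPM in KO and 0.142 to 2.33 CPM in WT. In bulk samples, fewer cells of a type and less RNA per cell cannot be told apart.

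The floxed genes were not uniformly lower at the gene level. Abca1 (chromosome 4, 53030787 to 53159895, GRCm38) stood at 105, 78.6 and 66.1 CPM in KO and at 87.3, 114 and 106 CPM in WT, so the groups overlapped (log2 fold change -0.30 ± 0.28 SE, adjusted p = 0.947). Abcg1 (chromosome 17, 31057675 to 31117988) stood at 41.6, 66.4 and 56.0 CPM in KO and at 160, 91.7 and 107 CPM in WT, with every KO sample below every WT sample (-1.13 ± 0.32, adjusted p = 0.789). After cisplatin the Abcg1 groups overlapped, at 68.4, 50.9 and 54.1 CPM in KO against 42.7, 56.4 and 65.7 CPM in WT with saline (0.07) and with a difference of -0.21 with AIBP. Neither floxed gene passed the test in naive mice. The labels do not name the floxed exons, and counts over the whole gene include reads from exons that are not deleted, so these values do not measure recombination.

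The gene whose promoter drives Cre and the mouse oestrogen receptor gene Esr1 had no overlap between the genotypes in naive mice. Cx3cr1 (chromosome 9, 119901616 to 120069879), the fractalkine receptor gene, had 3397, 4291 and 4871 CPM in KO against 9989, 10656 and 9349 CPM in WT. All 9 KO libraries lay below all 9 WT libraries (log2 fold change -1.26 ± 0.19, adjusted p = 0.0757), which did not pass the threshold of 0.05; it passed in DESeq2, in limma-voom, with RLE scaling, with no filter and with the stricter filter. Esr1 (chromosome 10, 4611593 to 5005614), which encodes the oestrogen receptor alpha, had 43.4, 64.6 and 85.6 CPM in KO against 9.95, 0.445 and 4.51 CPM in WT (3.70 ± 1.25, adjusted p = 0.789). Reads from the receptor domain of a CreERT2 transcript cannot be told apart from Esr1 reads in a gene count where the sequences match. The same 2 genes separated the genotypes after cisplatin and saline, where Cx3cr1 passed (-1.44, adjusted p = 0.0106) as 1 of 9 genes in all (0.044%) and Esr1 stood at 42.9, 42.3 and 62.8 CPM in KO against 12.1, 0.225 and 0.752 CPM in WT. In the samples labelled ABC-imKO cisplatin AIBP, Esr1 stood at 3.23, 0.712 and 0.589 CPM, against 1.97 and 4.79 CPM in WT cisplatin AIBP. Cx3cr1 stood at 5551, 5250 and 7078 CPM in those 3 samples, against 7297 and 7902 CPM in WT (-0.35). In each of the 3 samples labelled ABC-imKO cisplatin AIBP, Esr1 was lower and Cx3cr1 higher than in each of the other 6 KO samples. Their genotype was not tested, and every value given for these samples goes by the label.

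**Figure D1:**
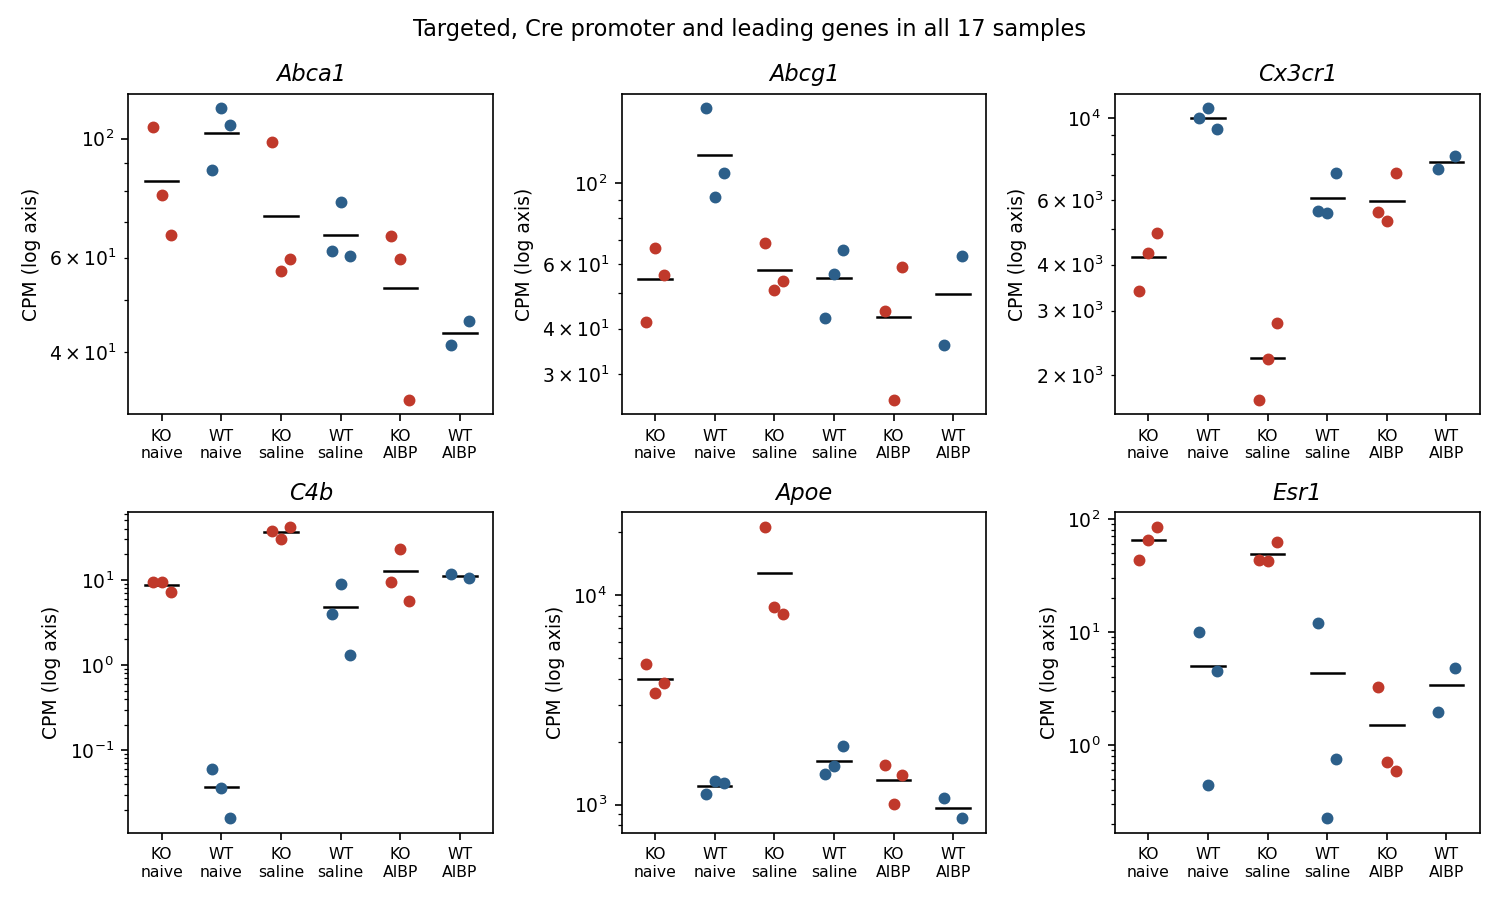
Each point is 1 sample and each bar a group mean, in CPM on a log axis, with ABC-imKO (KO, red) left of WT (blue) in naive mice and after cisplatin with saline or AIBP. In naive mice Cx3cr1 and Abcg1 are lower and C4b, Apoe and Esr1 higher in every KO sample than in every WT sample, while Abca1 overlaps.

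A single gene passed the test across all genes, out of 20461 (0.00489%). C4b (chromosome 17, 34728380 to 34743882), which encodes complement component 4, stood at 9.39, 9.38 and 7.30 CPM in KO against 0.0606, 0.0356 and 0.0159 CPM in WT, where it had 6 counts in all. It rose by a log2 fold change of 7.83 ± 0.85 (adjusted p = 0.00365), and all 9 KO libraries lay above all 9 WT libraries. C4b stood at 37.7, 30.4 and 42.2 CPM in KO and 4.02, 9.02 and 1.32 CPM in WT after cisplatin and saline, and at 9.46, 22.995 and 5.64 CPM in KO and 11.6 and 10.4 CPM in WT after AIBP. WT naive was thus the one group in which it was close to 0. Its near-identical neighbour C4a had 0.384 CPM or less in each naive sample, and reads shared by the pair could be assigned to either. C4b lost its call without WT naive sample 2 (adjusted p = 0.0823) and without technical replicate 1 (0.245) or 3 (0.0917). It also lost it in limma-voom (0.0860), with only the 6 naive samples (0.154) and with sample number as a replicate block (0.126). Its log2 fold change was then 7.47 to 8.13.

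**Figure D2:**
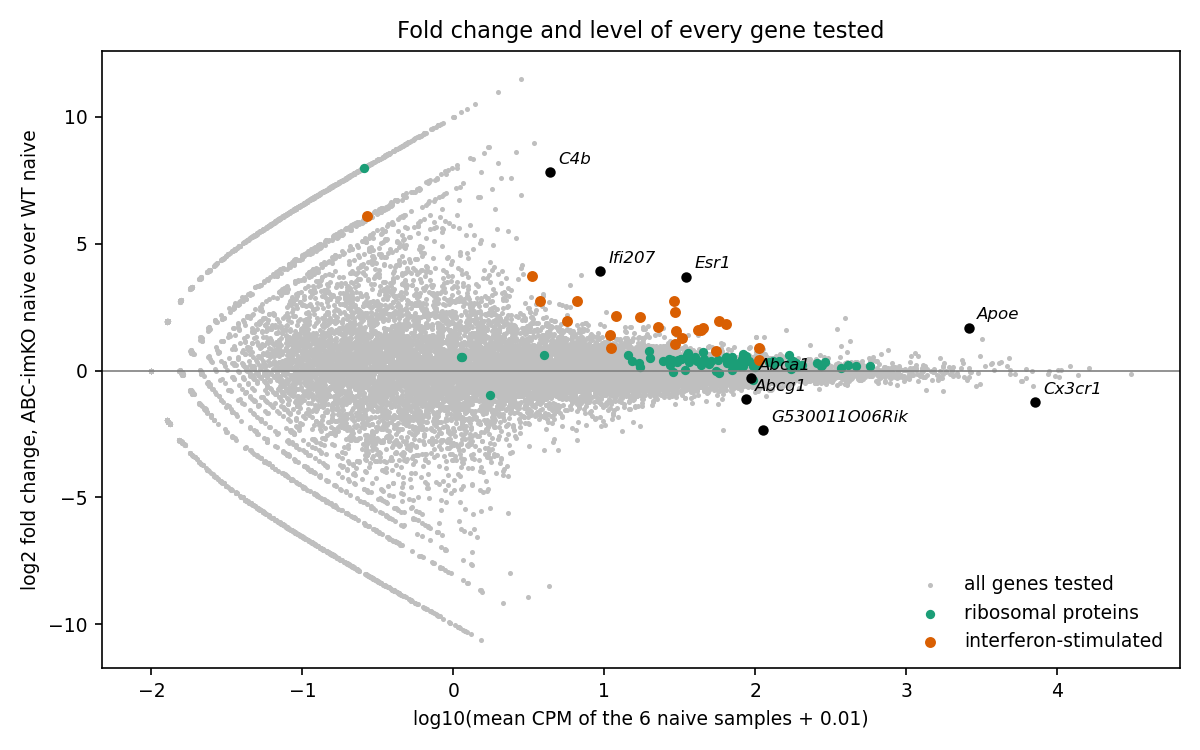
Each point is a gene tested; the x axis is the log10 mean CPM of the 6 naive samples and the y axis the log2 fold change of ABC-imKO over WT. Interferon-stimulated genes lie above 0, ribosomal protein genes lie mostly just above 0, and C4b stands far above other genes of its level.

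Before adjustment, 720 genes (3.52% of genes tested) were higher in KO and 500 (2.44%) lower with p under 0.05. In 1123 genes (5.49%) every KO sample was above every WT sample and in 848 (4.14%) every KO sample was below, and the counts of list members below are read against these shares. The median log2 fold change of all genes was 0.00.

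The interferon-stimulated genes had the highest median and the highest share without overlap of the lists with 10 or more members tested. These genes are switched on by type I interferon and limit virus replication. All 24 listed members were tested, all 24 had a higher fold change in KO, 21 had no overlap between the groups and 14 had an unadjusted p under 0.05, but 0 passed over all genes. Their median log2 fold change was 1.69. Their summed level was 1475, 986 and 935 CPM in KO against 371, 483 and 520 CPM in WT, with KO sample 1 the highest. Left out in turn, no single naive sample took the count of members without overlap below 21, while the share of all genes above without overlap was then 8.88 to 11.7%.

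Among the antiviral effectors, Oas1a, an oligoadenylate synthetase that activates RNase L, had 35.5, 24.1 and 24.01 CPM in KO against 5.60, 5.98 and 7.91 CPM in WT (2.10 ± 0.52, adjusted p = 0.712). Ifitm3, which blocks virus entry, had 128, 81.9 and 64.7 CPM in KO against 12.6, 26.3 and 31.2 CPM in WT (1.97 ± 0.56, adjusted p = 0.789). Bst2, the surface protein tetherin, had 173, 135 and 99.3 CPM in KO against 73.9, 70.7 and 77.6 CPM in WT (0.87 ± 0.19, adjusted p = 0.506). Each of the 3 genes was higher in all KO samples than in any WT sample. Of the 9 KO libraries, 5 lay above every WT library for Oas1a, 9 for Ifitm3 and 7 for Bst2.

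Ifi27l2a, an interferon-induced gene, had 68.4, 36.97 and 45.7 CPM in KO against 4.49, 10.3 and 7.80 CPM in WT, and all 9 KO libraries lay above all 9 WT libraries (2.74 ± 0.60, adjusted p = 0.538). The ubiquitin-like modifier Isg15 had 15.6, 5.84 and 5.38 CPM in KO against 1.58, 0.285 and 4.97 CPM in WT. The nucleic acid sensor Zbp1 had 18.7, 8.63 and 7.12 CPM in KO against 0.263, 2.37 and 2.48 CPM in WT. KO sample 1 was the highest sample for all 3 genes. Of the 9 KO libraries, 3 lay above every WT library for Isg15 and 7 for Zbp1.

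Factors that carry the interferon signal ranged widely. Irf7 had 89.7, 60.8 and 56.3 CPM in KO against 19.95, 22.6 and 22.8 CPM in WT (1.66 ± 0.68), Stat2 89.3, 63.1 and 54.4 CPM in KO against 30.2, 38.4 and 52.7 CPM in WT (0.77 ± 0.32), and Irf9 125, 98.4 and 142 CPM in KO against 93.6, 98.2 and 80.4 CPM in WT (0.43 ± 0.31). The adjusted p was 0.789 to 0.870 for these 3 genes. Ifit1, Cxcl10 and Ifi44, named after their values were seen, were the 3 members whose groups overlapped.

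Of 16 members with a RefSeq promoter window (250 bases before to 50 after the start site, GRCm38.p6), 11 held the motif GAAANNGAA on either strand, against 9.76% of all 27025 gene symbols with a window. This is a core shared by many interferon-stimulated response elements; a match is a description of the letters. The stretches of 4 such members, on the strand of the gene, show how matches repeat within one promoter. Capitals mark the matches, which may overlap; in Ifit3 and Ifit1 they are on the opposite strand.
Bst2, chr8:71537558-71537626 (minus strand): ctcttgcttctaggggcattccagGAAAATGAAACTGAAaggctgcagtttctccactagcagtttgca
Isg15, chr4:156200846-156200914 (minus strand): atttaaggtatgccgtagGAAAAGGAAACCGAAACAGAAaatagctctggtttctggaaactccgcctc
Ifit3, chr19:34583397-34583465 (plus strand): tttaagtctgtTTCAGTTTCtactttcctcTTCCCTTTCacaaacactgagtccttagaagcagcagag
Ifit1, chr19:34640775-34640843 (plus strand): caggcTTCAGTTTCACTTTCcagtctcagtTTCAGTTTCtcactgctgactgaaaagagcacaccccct
Ifit3 and its paralog Ifit3b have the same letters in this stretch, and reads shared by that pair could be assigned to either.

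**Figure D3:**
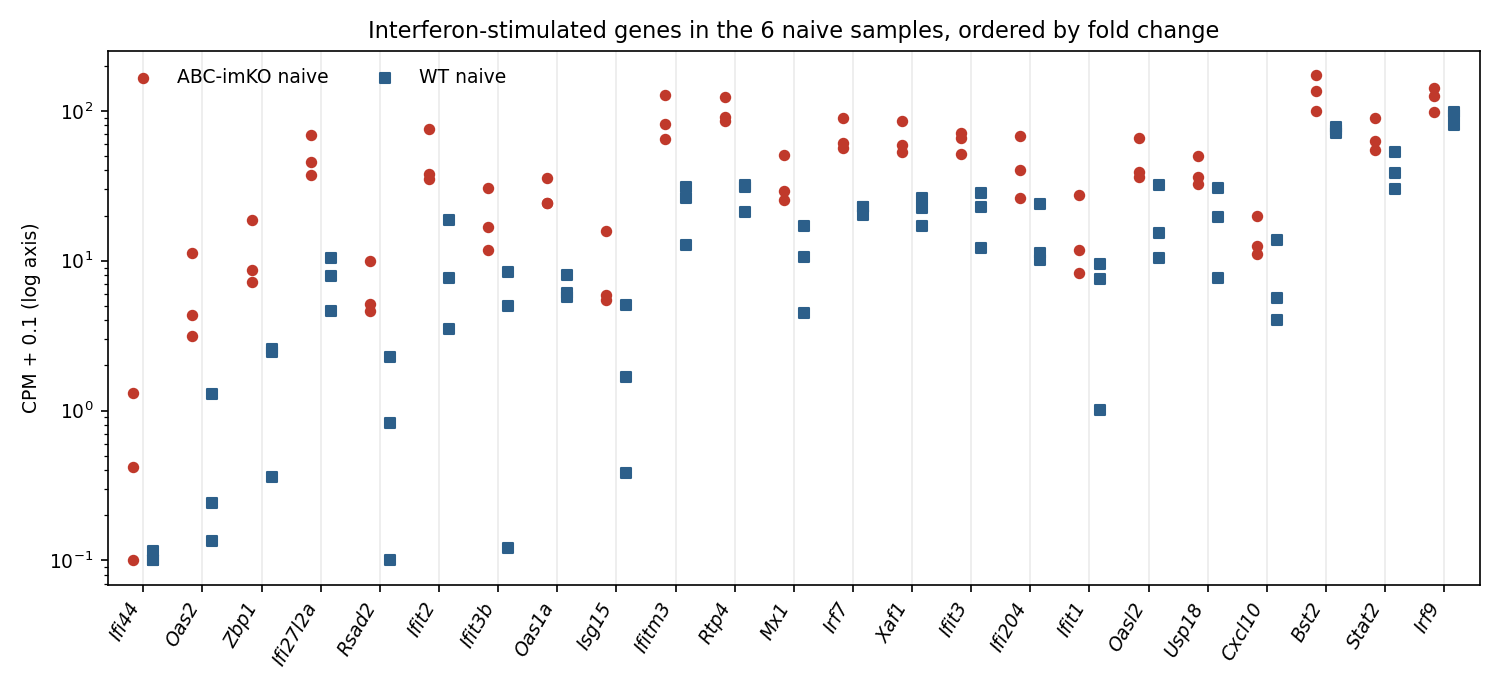
Each point is the CPM of 1 naive sample (plus 0.1, log axis) for 1 interferon-stimulated gene, ABC-imKO (circles) left of WT (squares), for 23 genes ordered by fold change. In 20 of the 23 every circle lies above every square.

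After cisplatin the genotype difference of the interferon list was near 0. Its median log2 fold change between KO and WT was 0.12 after saline and -0.14 after AIBP, in samples that share none with the naive comparison. As mean log2(CPM + 1) above the WT naive mean, the list stood at 2.00, 1.39 and 1.25 in KO naive, at -0.12, 1.05 and 0.54 in KO and -0.03, 0.68 and 0.77 in WT after saline, and at -0.50, 0.12 and 0.39 in WT naive. The difference between the genotype effect after saline and the one in naive mice was tested gene by gene, and 0 of the 20461 genes passed (1561 at an unadjusted p under 0.05; 185 passed in DESeq2).

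**Figure D4:**
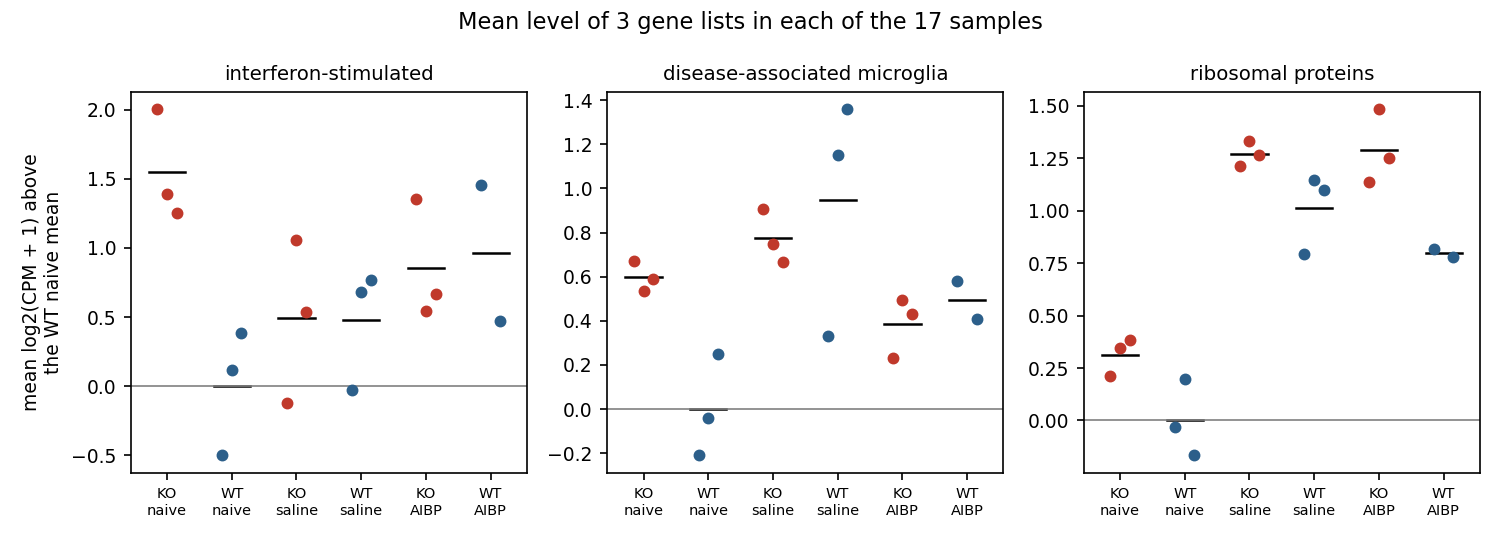
Each point is the mean log2(CPM + 1) of a list in 1 sample, relative to the mean of the WT naive samples; bars are group means, ABC-imKO (red) left of WT (blue). The KO naive samples lie above the WT naive samples in all 3 lists; after cisplatin the ribosomal list lies above both naive groups in every sample.

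Disease-associated microglia genes, a program known from mouse models of Alzheimer's disease, also stood higher. Of 23 members tested, 19 had a higher fold change in KO, 9 had no overlap and lay above, 0 lay below, and the median was 0.48. Apoe (chromosome 7, 19696109 to 19699188), the main lipid carrier of the brain and an LXR target, had 4693, 3421 and 3799 CPM in KO against 1120, 1296 and 1264 CPM in WT (1.69 ± 0.30, adjusted p = 0.243). All 9 KO libraries lay above all 9 WT libraries. The genotype difference of Apoe after saline was 2.98 and passed (adjusted p = 0.00318). In naive mice it passed in DESeq2, with no filter and with the stricter filter. The list as a whole had a median of -0.09 after saline and of -0.05 after AIBP. After saline 2 of 23 members lay above and 0 below without overlap, where 6.1% of all genes lay above and 6.4% below.

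Axl, a receptor that recognises dying cells, had 170, 126 and 134 CPM in KO against 69.7, 48.3 and 55.7 CPM in WT (1.31 ± 0.30, adjusted p = 0.577). The cystatin Cst7 had 18.7, 14.1 and 16.7 CPM in KO against 3.42, 5.18 and 10.6 CPM in WT (1.36 ± 0.36, adjusted p = 0.789). Clec7a, the receptor dectin-1, had 75.0, 62.9 and 51.9 CPM in KO against 23.2, 45.2 and 31.9 CPM in WT (0.92 ± 0.35, adjusted p = 0.789). Csf1, Lgals3, B2m, Ctsl and Ctsd were the other members without overlap, with log2 fold changes of 0.48 to 1.73.

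Genes of cholesterol handling did not move as one. Of 18 efflux genes and LXR targets tested, the median log2 fold change was -0.03, with 3 members above and 1 below without overlap. The 3 above were Apoe, Scd2, a fatty acid desaturase gene with 62.4, 29.6 and 34.4 CPM in KO against 20.4, 28.1 and 19.8 CPM in WT, and Apoc1, a neighbour of Apoe. Apoc1 had 59, 1 and 4 counts in KO and 0 in WT, so it rested on KO sample 1. The 1 below was Abcg1.

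In cholesterol synthesis 17 of 24 members had a lower fold change, 5 lay below without overlap, 0 lay above, and the median was -0.11. Without WT sample 2, 9 lay below, where 8.39% of all genes did. With any other naive sample left out, 5 to 7 lay below (7.06 to 10.3% of all genes) and 0 or 1 above. Insig1, which holds SCAP back when sterols are plentiful, had 22.5, 22.3 and 28.4 CPM in KO against 39.1, 37.3 and 51.6 CPM in WT (-0.81 ± 0.27). Scap itself had 51.6, 34.3 and 31.9 CPM in KO against 66.5, 66.1 and 67.1 CPM in WT (-0.76 ± 0.28). The enzyme genes Pmvk, Mvd and Hmgcs1 had -0.58, -0.48 and -0.47. The adjusted p of these 5 genes was 0.789 to 0.817. In uptake and storage, 2 of 20 lay above without overlap (Scarb1 and Lrp1) and 2 below (Soat1, which esterifies cholesterol, and the lysosomal lipase gene Lipa), with a median of 0.15.

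Ribosomal protein genes showed a small and broad difference. Of 82 tested, 77 had a higher fold change, 32 lay above without overlap, 0 lay below, and the median was 0.33. The count above was 53 without KO sample 1 (10.4% of all genes) and 54 without WT sample 2 (9.41% of all genes). With any other naive sample left out it was 33 to 36 (8.88 to 11.7% of all genes), with 0 to 2 below. Their summed level was 7886, 8934 and 9740 CPM in KO against 7359, 8232 and 6453 CPM in WT. Those ranges overlap, with KO sample 1 below WT sample 2. Rps21 had 26.05, 24.3 and 24.5 CPM in KO against 13.1, 16.9 and 13.4 CPM in WT (0.79 ± 0.18, adjusted p = 0.577), and Rplp1 had 207, 227 and 174 CPM in KO against 117, 167 and 110 CPM in WT (0.63 ± 0.18, adjusted p = 0.789). After saline the median was 0.27, with 29 of 82 above and 0 below without overlap, where 6.1% of all genes lay above and 6.4% below. Ribosomal protein genes have many processed copies in the genome, and reads could be shared with them.

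Homeostatic microglia genes were close to even. Of 18 members, 7 had a higher and 11 a lower fold change, with a median of -0.12, and Cx3cr1 had the lowest. P2ry12, the purinergic receptor of resting microglia, had 4323, 4943 and 5817 CPM in KO against 7225, 6936 and 5651 CPM in WT (-0.39 ± 0.32), so the groups overlapped. Without overlap, Fcrls (0.41), Olfml3 (0.26) and Sparc (0.30) lay above and Cx3cr1 and the transcription factor gene Mef2c (-0.12) below. After saline the 3 genes above were of the opposite sign, with Fcrls at -0.70, Olfml3 at -1.53 and Sparc at -0.44. The list then had a median of -0.52 with 0 members above and 7 below, where 6.1% of all genes lay above and 6.4% below.

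**Figure D5:**
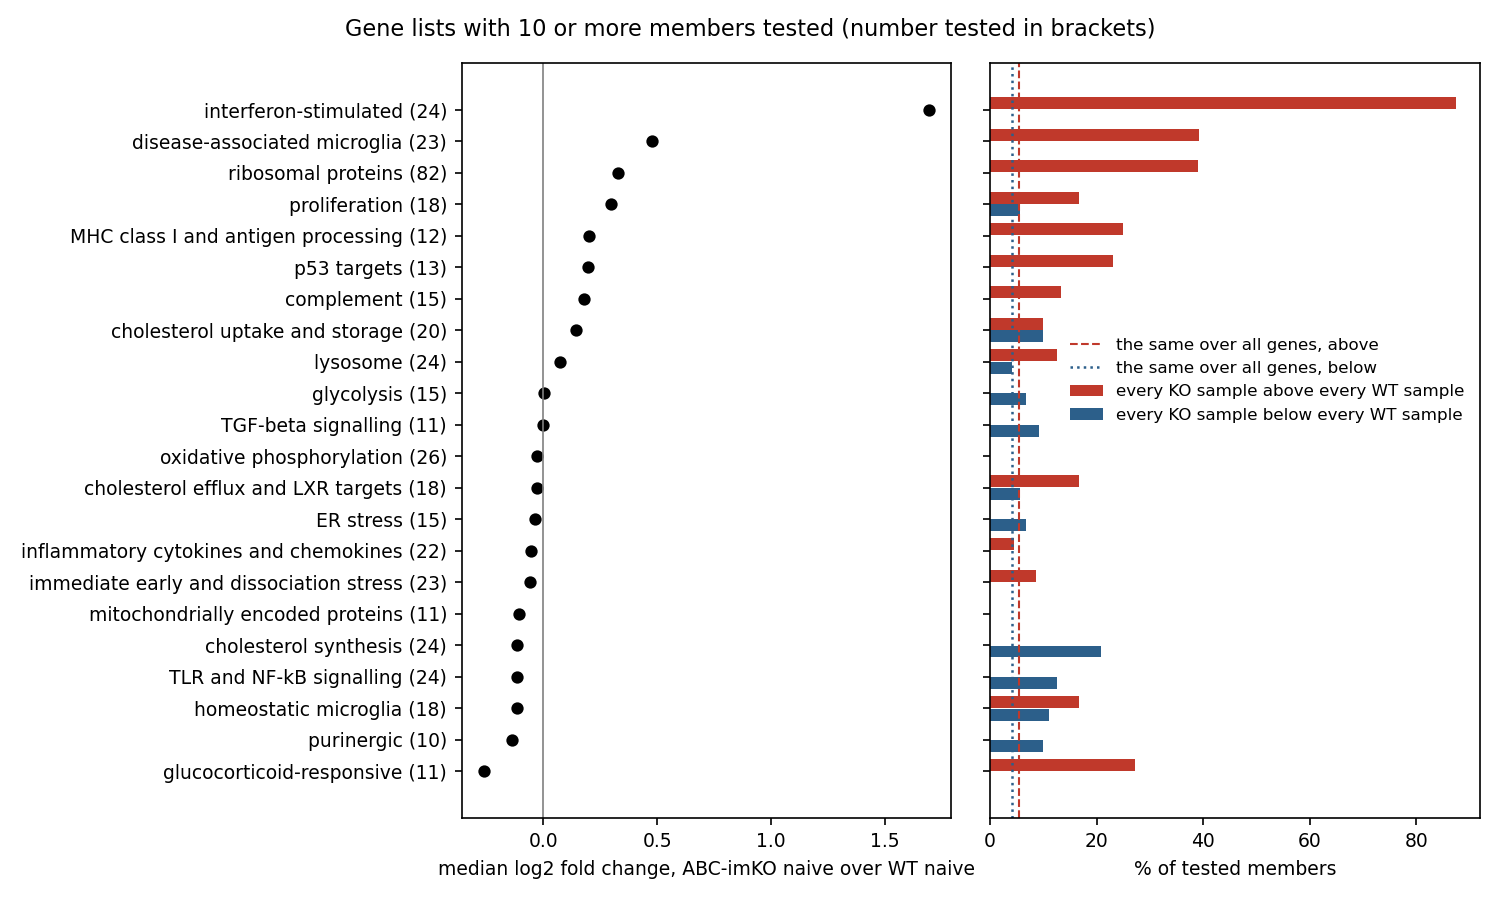
For lists with 10 or more members tested, the left panel gives the median log2 fold change of ABC-imKO over WT and the right panel the share of members with every KO sample above (red) or below (blue) every WT sample; vertical lines mark the same shares over all genes (5.49% and 4.14%). The interferon list has both the highest median and the highest share.

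In each remaining list at most 3 members lay above and at most 3 below without overlap, where 5.49% of all genes lay above and 4.14% below. Several are short lists. The share above exceeded that of all genes in both MHC lists, Fc receptors and glucocorticoid-responsive genes. It also did so in the complement, p53, proliferation, lysosome and immediate early lists, and in some lists of other cell markers. The share below did so in the TLR and NF-kB, glycolysis, ER stress, TGF-beta, purinergic and proliferation lists, among others. In the complement list 2 of 15 lay above, C4b and C3, the central complement protein, which had 36, 38 and 158 counts in KO and 0 in WT. In antigen presentation by MHC class I 3 of 12 lay above, with H2-D1 at 2403, 2586 and 2843 CPM in KO against 2060, 2340 and 1951 CPM in WT. In MHC class II 2 of 7 lay above, H2-Aa and Ciita. Ciita had 38 counts in KO and 1 in WT, with 0.0172, 0.0167 and 0.579 CPM in KO, so it rested on KO sample 3. Of the MHC members above, H2-D1, Tap1 and H2-Aa lie within 5 Mb of Abcg1, and the strain there was not tested. Of 22 inflammatory cytokine and chemokine genes 1 lay above, Ccl9, with 158, 114 and 91.7 CPM in KO against 65.7, 57.6 and 69.5 CPM in WT. Of 24 genes of TLR and NF-kB signalling 3 lay below, the kinase genes Irak2, Irak3 and Irak4. None of 26 oxidative phosphorylation genes and none of 11 mitochondrially encoded genes separated the groups. Among glucocorticoid-responsive genes 3 of 11 lay above, with a median of -0.26, against a median of 1.37 after saline. In the lysosome list 3 of 24 lay above and 1 below, in the proliferation list 3 of 18 above and 1 below, and among Fc receptors 2 of 7 above. Glycolysis, ER stress, TGF-beta and purinergic genes each had 1 member below and 0 above.

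Cell cycle and stress genes differed in a few members. Cdkn1a, which encodes the cell cycle inhibitor p21 and is a p53 target, had 138, 265 and 318 CPM in KO against 52.4, 81.8 and 101 CPM in WT (1.62 ± 0.37, adjusted p = 0.577), and 3 of 13 p53 targets lay above without overlap. Top2a, a topoisomerase of dividing cells, had 13.2, 15.7 and 3.63 CPM in KO against 0.202, 1.30 and 1.59 CPM in WT (3.39 ± 0.74, adjusted p = 0.532), but had 2.09, 4.45 and 8.35 CPM in KO and 22.9, 15.3 and 17.5 CPM in WT after saline. The chaperone genes Hsp90aa1 (0.95 ± 0.25) and Hspa1b (1.34 ± 0.56) lay above without overlap among 23 immediate early and dissociation stress genes, a list with a median of -0.06. That list ran from -1.06 in KO sample 1 to 0.67 in WT sample 2 on the log2 scale, and its part in the other differences was not tested.

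Among the other genes with the smallest p, those higher in KO included further interferon-inducible families. Slfn2, of the Schlafen family, had 192, 147 and 154 CPM in KO against 61.7, 77.1 and 56.6 CPM in WT (1.33 ± 0.26, adjusted p = 0.284). Ifi207, of the PYHIN family of DNA-binding proteins, had 22.7, 21.1 and 8.65 CPM in KO against 0.162, 1.69 and 1.59 CPM in WT (3.92 ± 0.77, adjusted p = 0.304). Lgals3bp, which encodes a binding partner of galectin-3, had 584, 620 and 563 CPM in KO against 229, 245 and 311 CPM in WT (1.17 ± 0.21, adjusted p = 0.254). All 9 KO libraries lay above all 9 WT libraries for each of these 3 genes.

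Cad, which encodes the first enzymes of pyrimidine synthesis, had a log2 fold change of 1.72, Prkar2a, a regulatory subunit of protein kinase A, 1.73, and Gla, the lysosomal alpha-galactosidase, 1.79. Those lower in KO came from no single listed group. Pigl, an enzyme of GPI anchor synthesis, had 2.61, 6.24 and 2.99 CPM in KO against 10.3, 20.5 and 16.5 CPM in WT (-1.997 ± 0.41, adjusted p = 0.336). Ide, the insulin-degrading enzyme, had 20.8, 44.3 and 31.998 CPM in KO against 79.3, 87.8 and 75.2 CPM in WT (-1.32 ± 0.31, adjusted p = 0.577).

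Cd180, a toll-like receptor relative, had 85.6, 112 and 140 CPM in KO against 174, 201 and 170 CPM in WT (-0.69 ± 0.17, adjusted p = 0.712). Shld2 (-1.32), Oaz2 (-1.05), Gab3 (-1.004), Specc1l (-1.18), Glce (-1.84), Rhbdd2 (-0.94) and Vps33b (-0.82) also lay below without overlap, and Mettl8 (-2.02) overlapped. Leaving out gene models, clones, pseudogenes and unnamed IDs, the 6 lowest fold changes without overlap at 10 CPM or more were those of Car2 (-2.38), Slc9a3r2 (-2.25), Tubb4a (-2.19), Qprt (-2.02), Pigl and Gdpd1 (-1.91).

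Genes beside the targeted loci were counted because floxed and knock-in alleles can carry flanking chromosome from the strain in which they were made. Within 5 Mb of Abca1, Abcg1 or Cx3cr1, 49 of 444 genes (11.04%) had no overlap, against 9.63% of all genes tested, and 28 (6.31%) had an unadjusted p under 0.05, against 5.96%. Within 2 Mb it was 25 of 142 (17.6%), and within 2 Mb of Cx3cr1 15 of 71 (21.1%). The strain around these loci was not tested. Within 5 Mb of Cx3cr1 it was 19 of 125 (15.2%), around Abcg1 28 of 287 (9.76%) and around Abca1 2 of 32 (6.25%). The 3 smallest p values belonged to C4b and Cdkn1a near Abcg1 and to Dlec1 near Cx3cr1. Dlec1 had 14, 133 and 24 counts in KO and 0 in WT.

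The genotype difference in naive mice was compared with that after cisplatin and saline, which used other samples. Across the 8570 genes with a mean of 10 CPM or more over all samples, the 2 sets of log2 fold changes had a Pearson r of 0.061 (Spearman rho 0.086); genes are not independent replicates. Of 439 such genes above without overlap in naive mice, 64 (14.6%) were also above without overlap after saline, against 7.74% of all 8570 genes, and 20 were below. Of 471 below, 45 (9.55%) were also below, against 7.70% of all, and 34 were above. Apoe, Axl and Slfn2 were above and Cx3cr1, Ide and Cd180 below in both.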

How the data were processed

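The authors deposited raw counts per gene for 102 runs. The submitters' processing notes list STAR 2.6.0a, DESeq2, MultiQC 1.7, FastQC 0.11.17 and bcl2fastq, with the GRCm38 build. The counting tool and strand setting are not given in the sources used here, so overlapping and antisense genes cannot be separated. Runs of one numbered sample (3 technical replicates, 2 lanes) were summed. Gene IDs were named from GENCODE M21 (53620 of 53715). The main test was edgeR 4.0.16 (R 4.3.3), quasi-likelihood, two-sided, with TMM scaling and filterByExpr by group. It had one mean for each of the 6 groups, fitted to 17 samples, which left 11 residual degrees of freedom; the biological coefficient of variation was 0.922. Benjamini-Hochberg adjustment ran over 20461 genes, with a threshold of 0.05. Every adjusted p and log2 fold change ± SE in the report comes from this fit unless another tool or setting is named, and CPM uses TMM-scaled library sizes. With the origin of the samples not labelled, a p-value reflects only their spread, which may be technical. Alternatives used DESeq2 1.42.0 and limma 3.58.1. The deposited normalized table was not used.

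Genes were named by rule: the floxed genes and Cx3cr1; called genes; the 12 smallest p and the 6 largest folds without overlap per direction, at 10 CPM or more and leaving out gene models, clones, pseudogenes and unnamed IDs; up to 4 members per list by p and members without overlap; and 3 genes near the targeted loci. Members and lists were chosen with earlier results of these data known. The values of 1 member of the interferon list are not reported here; its counts and medians include it.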

Additional observations from a re-analysis of the deposited data

How the results depend on the processing

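The count of called genes was 1, and 166 in DESeq2, 2 with RLE scaling, 5 with no filter, 4 with the stricter filter (5 CPM or more in 3 samples), 0 with only the 6 naive samples and 43 with single libraries as units (9 libraries per genotype, from 3 samples, so not independent) and the technical replicate number as a replicate block. Limma-voom and upper quartile scaling gave 1 each; the limma-voom call was Cx3cr1 (-1.26). Without technical replicate 3 the count was 0; leaving out 1 technical replicate or 1 naive sample gave 0 to 2 (0 without WT naive 2, 2 without WT naive 3). With sample number as a replicate block 0 genes passed (704 at an unadjusted p under 0.05). The labels do not state whether the numbers pair the samples. Same-numbered deviations from the group means had r = -0.033, -0.027 and -0.137 across 8570 genes, and differently numbered ones -0.042 to 0.079. With 3 samples per group these values cannot decide it. With only the 6 naive samples, 694 genes had an unadjusted p under 0.05. The cause of these differences was not tested. The interaction count was 0, with 185 in DESeq2 and 3 with the stricter filter. Members without overlap among ribosomal genes numbered 33 to 54 (32 with all samples) and among cholesterol synthesis genes 5 to 9 when 1 naive sample was left out, an alternative chosen after seeing the data. Near the targeted loci 49 genes had no overlap within 5 Mb, 25 within 2 Mb (of 142) and 85 within 10 Mb (of 760). Of the genes named, 2 changed sign. The C4a log2 fold change was 0.18, and -0.63 with libraries as units and -3.52 to 6.13 with 1 sample or technical replicate left out. The Tubb4a log2 fold change was -2.19, and -3.50 to 0.058 with 1 left out.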

Other observations

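A pair of X-linked genes, chosen after their values were seen, separated the genotypes in naive mice, and 1 of them, G530011O06Rik, in all 3 states of treatment. G530011O06Rik (chromosome X, 169975043 to 169978917), a non-coding transcript, stood at 17.6, 37.6 and 56.3 CPM in KO naive against 112, 281 and 173 CPM in WT naive (log2 fold change -2.34 ± 0.42, adjusted p = 0.243), and all 9 KO libraries lay below all 9 WT libraries. Over all states its 9 KO samples had 17.6 to 56.3 CPM and its 8 WT samples 100.0 to 281.0 CPM. Mid1 (chromosome X, 169685199 to 170005736), a ubiquitin ligase gene that contains this position, stood at 3.77, 3.92 and 6.46 CPM in KO naive against 8.94, 27.4 and 16.6 CPM in WT naive (-1.90 ± 0.56, adjusted p = 0.789). The strain background of the groups was not given in the sources used here.

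In 6 genes every KO sample of the series lay above every WT sample, and in 5 every KO sample lay below. Without the samples given AIBP, a comparison added after seeing the data, 31 genes lay above and 26 below over 6 KO and 6 WT samples. Those named here were chosen after their values were seen. One of those above was Pik3r6, a regulatory subunit of PI3K-gamma, with 98.5, 121 and 126 CPM in KO naive against 85.4, 75.2 and 81.2 CPM in WT naive (0.51 ± 0.17, adjusted p = 0.789). Another was Ddit4, an inhibitor of mTOR signalling that glucocorticoids induce, which had 2.96, 6.94 and 2.44 CPM in KO naive against 0.222, 0.0712 and 1.31 CPM in WT naive (2.94 ± 0.88, adjusted p = 0.789), with genotype differences of 4.40 after saline and 5.44 after AIBP. A further one was Sik1 (chromosome 17, 31844250 to 31855804), a salt-inducible kinase gene. It had 3.63, 3.62 and 3.57 CPM in KO naive against 0.869, 1.03 and 1.85 CPM in WT naive (1.53 ± 0.62, adjusted p = 0.789). Sik1 lies within 2 Mb of the floxed gene Abcg1, and the part of flanking chromosome in its difference was not tested.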
